A study of Homo sapiens with 6 samples.

Results

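CD40, CD80, CD86, CD83, ICOSLG, CD274, PDCD1LG2, CD58 and CD70 are 9 surface molecules through which an antigen-presenting cell, B cells included, speaks to T cells. They were followed here across 6 Affymetrix HG-U133 Plus 2.0 arrays of EZH2 knockdown in lymphoma. Their 26 probe sets are all those whose annotation names 1 of these symbols and no other gene, out of 41091 such probe sets of 19775 genes. Most of the 9 are ligands of T cell or NK cell receptors. CD40 is itself a receptor, and CD83 is a membrane protein of activated B cells and mature dendritic cells that is better described as a marker and regulator of activation than as a ligand.

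KARPAS-422 and Pfeiffer are the 2 human lines measured, both grown from diffuse large B-cell lymphomas, which arise from mature B cells. KARPAS-422 shEZH2 and KARPAS-422 shNTC had 2 arrays each, called biological replicates in the titles, and Pfeiffer shEZH2 and Pfeiffer shNTC had 1 array each. The shEZH2 cells carried a short hairpin RNA against EZH2, the catalytic subunit of Polycomb repressive complex 2, a complex that silences genes by methylating histone H3. The shNTC cells carried a hairpin against a non-mammalian sequence. All groups, controls included, were infected with lentivirus in the presence of polybrene at 8 µg/ml, selected from day 2 with puromycin at 1 µg/ml for 2 days, and labelled as 10 days of treatment. Each arm rested on 1 hairpin sequence, and the knockdown was partial. Nothing in the labels says whether replicates were separate infections, so p-values measure the spread between these arrays, which may be technical. The arrays read the RNA of whole cultures, in which a change in the share of expressing cells and a change in RNA per cell cannot be told apart.

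T cell activation needs a signal through the antigen receptor and a second, costimulatory signal. CD80 and CD86 give the second signal through CD28, and damp it through CTLA4. ICOSLG binds ICOS, CD70 binds CD27, and CD58 binds the adhesion receptor CD2. CD274 (PD-L1) and PDCD1LG2 (PD-L2) bind PD-1, the checkpoint receptor that restrains T cells. CD40 on a B cell is engaged by CD40L of helper T cells, signals through TRAF adaptors to NF-kappaB, and is known to raise CD80, CD86 and CD83 in normal B cells. In germinal centres CD83 and CD86 mark light zone B cells, which receive T cell help.

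RefSeq promoter windows, covering 250 bases before to 50 bases from the start of transcription on GRCh38.p14, were found for 6 of the 9 genes, as 8 windows. The 3 windows below are shown because they hold a match to a motif of the pathways in which these genes are known to work. In the second CD86 window, at chr3:122077534-122077833 on the plus strand, capitals mark overlapping matches to the NF-kappaB consensus, the first of which begins at -82 from the start of transcription. In the second CD83 window, at chr6:14117522-14117821 on the plus strand, capitals mark overlapping matches to the same consensus, the first at -76. In the CD274 window, at chr9:5450292-5450591 on the plus strand, capitals mark 2 overlapping matches to TTTC, any 2 bases and TTTC again, the core of an interferon-stimulated response element, at -208 and -202, and 1 copy of TTCNNNGAA, a spaced palindrome, at -125.
CD86 promoter, second window: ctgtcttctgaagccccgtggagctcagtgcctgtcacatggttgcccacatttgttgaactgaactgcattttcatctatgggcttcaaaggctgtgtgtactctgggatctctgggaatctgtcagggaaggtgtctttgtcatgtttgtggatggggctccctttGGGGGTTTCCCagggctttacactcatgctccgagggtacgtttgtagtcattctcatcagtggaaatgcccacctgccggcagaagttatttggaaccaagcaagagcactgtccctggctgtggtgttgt
CD83 promoter, second window: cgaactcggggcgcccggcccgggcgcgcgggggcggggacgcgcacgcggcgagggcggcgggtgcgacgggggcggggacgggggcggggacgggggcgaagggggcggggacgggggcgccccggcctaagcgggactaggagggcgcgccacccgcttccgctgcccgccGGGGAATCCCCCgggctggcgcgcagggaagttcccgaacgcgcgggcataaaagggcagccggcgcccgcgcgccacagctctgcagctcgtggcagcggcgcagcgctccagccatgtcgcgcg
CD274 promoter: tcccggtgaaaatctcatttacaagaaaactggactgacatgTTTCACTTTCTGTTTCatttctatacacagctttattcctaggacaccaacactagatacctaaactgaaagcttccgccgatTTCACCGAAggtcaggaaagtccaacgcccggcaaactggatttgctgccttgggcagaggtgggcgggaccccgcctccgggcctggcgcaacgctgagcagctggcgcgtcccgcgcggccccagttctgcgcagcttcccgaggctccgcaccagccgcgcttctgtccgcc
Both strands were searched, and the NF-kappaB consensus reads its own reverse complement in part, so that 1 stretch can be counted on both strands. Over all 35116 RefSeq promoter windows, 5.91% held the NF-kappaB consensus, 3.57% held the interferon-stimulated core and 7.66% held TTCNNNGAA. These letters were not found in the windows of CD80, ICOSLG or CD58 or in the first windows of CD86 and CD83. A match is a description of the sequence, and no binding was measured in these data.

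EZH2 itself was lower with its hairpin in both lines. Its log2 signal was 10.52 and 10.55 on the KARPAS-422 shEZH2 arrays and 11.71 and 11.57 on the shNTC arrays, a difference of -1.11 (SE 0.10, n = 2 per arm, limma adjusted p = 7.73e-04) that left 46.3% of control. In Pfeiffer the signal was 10.24 with shEZH2 and 11.65 with shNTC, or 37.6% of control, from 1 array per arm. Replicate arrays correlated at r = 0.982 for shEZH2 and 0.978 for shNTC in KARPAS-422 across 13036 genes, against 0.950 to 0.955 across its arms. The 3' minus 5' difference of the ACTB control probe sets, a sign of RNA quality, was 0.138 and 0.175 on the KARPAS-422 shEZH2 arrays and 0.0593 and 0.0830 on the shNTC arrays. It moved with the knockdown in that line, and its part in the results below was not tested. The same difference for GAPDH was -0.169 and -0.241 on the shEZH2 arrays and -0.182 and -0.158 on the shNTC arrays, and its arms overlapped.

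A probe set was tested only if it exceeded 6.21, the median deposited log2 signal, on at least 2 of the 6 arrays. This kept 15 of the 26 probe sets and 7 of the 9 genes, and left out CD274 and PDCD1LG2, which had no probe set above it on 2 arrays. A filter of this kind keeps a gene that is high in a single group, so the counts below describe the 7 genes and say nothing of the other two. Each gene was read from its brightest kept probe set, and a gene was called where its adjusted p over all 13036 genes was under 0.05.

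In KARPAS-422, CD86, CD70, CD40 and CD83 rose with EZH2 knockdown, by 3.14-, 2.66-, 2.20- and 1.70-fold, while CD80, CD58 and ICOSLG did not pass the test. By limma, 4 of the 7 measured genes were called higher, where 13.1% of all genes tested were. None of the 7 was called lower, where 12.3% of all genes were, and 0 of the 7 were lower at an unadjusted p under 0.05. The median difference over the 7 was 0.76, against -0.02 over all genes. Among the 15 kept probe sets, tested one by one, 9 were called higher, against 12.4% of all kept probe sets. By limma 0 were called lower, against 9.1%, with 1 lower at an unadjusted p under 0.05. The 9 called higher include all 4 probe sets of CD40 and all 3 of CD86, so the count repeats genes.

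**Figure D1:**
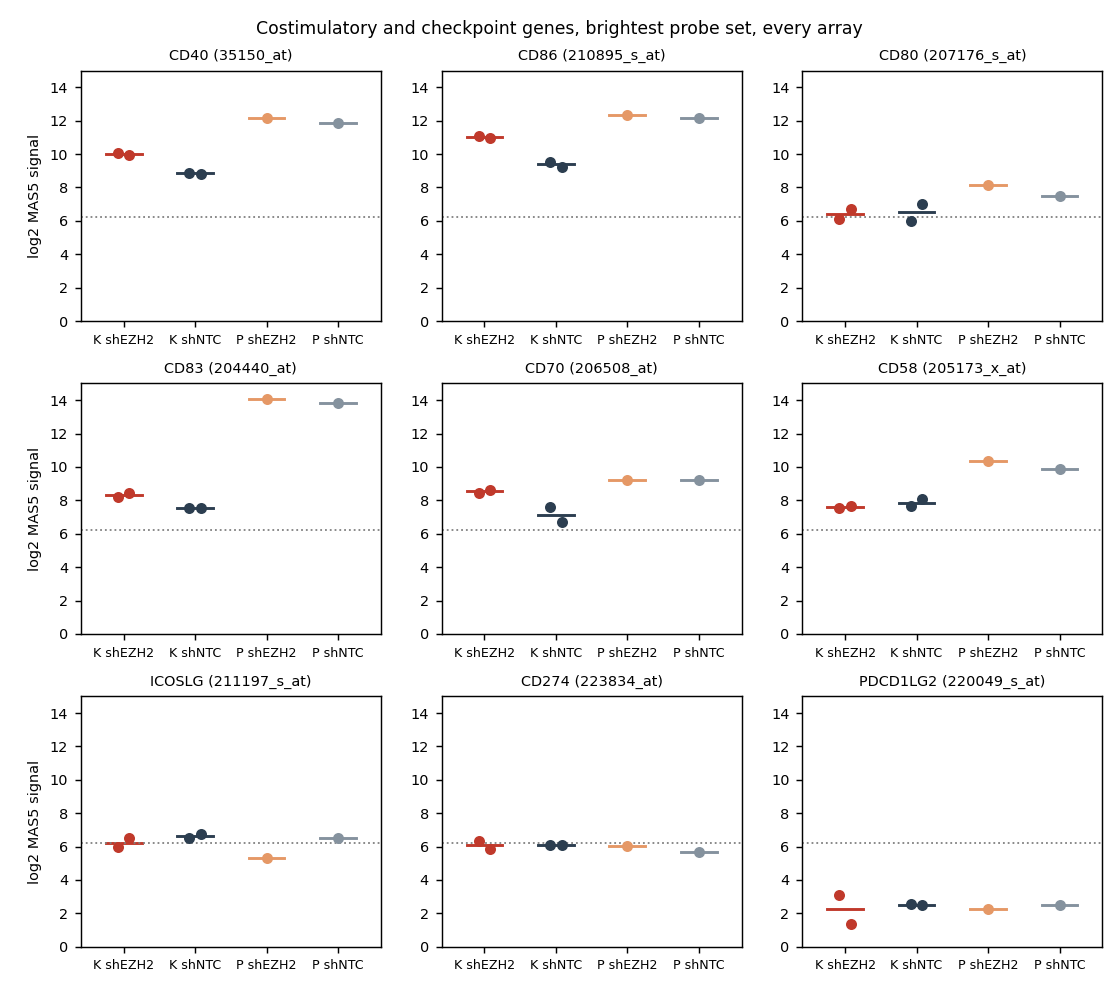
Log2 MAS5 signal (vertical axes) on every array for the 9 genes, each read by its brightest probe set, in KARPAS-422 (K) and Pfeiffer (P). Points are arrays, short lines are group means and the dotted line is the filter value of 6.21. CD40, CD86, CD83 and CD70 lie higher on both KARPAS-422 shEZH2 arrays than on both shNTC arrays, and CD274 and PDCD1LG2 stay near or below the dotted line on every array.

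CD40, the receptor for T cell help, had log2 signals of 10.05 and 9.94 on the KARPAS-422 shEZH2 arrays and 8.89 and 8.82 on the shNTC arrays. Both knockdown arrays lay above both controls by about as much, and the difference was 1.14 (SE 0.11, n = 2 per arm, limma adjusted p = 9.88e-04). The gene's other 3 probe sets also rose, each without overlap between the arms. Probe set 205153_s_at read 9.14 and 8.97 with shEZH2 and 6.74 and 6.31 with shNTC (difference 2.53, limma adjusted p = 4.60e-04 over all kept probe sets). Probe set 215346_at read 8.93 and 8.38 with shEZH2 and 6.57 and 6.82 with shNTC (1.96, limma adjusted p = 0.00225). The dimmest, 222292_at, read 6.81 and 7.32 with shEZH2 and 4.58 and 5.72 with shNTC (1.91, limma adjusted p = 0.0190). The brightest probe set thus gave the smallest difference of the 4. The rise of CD40 kept its call in every alternative listed in the closing section, between 0.96 and 1.89.

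CD86, a ligand of CD28 and CTLA4, had log2 signals of 11.08 and 10.99 on the KARPAS-422 shEZH2 arrays and 9.52 and 9.25 on the shNTC arrays. The arms were well apart, with a difference of 1.65 (SE 0.12, n = 2 per arm, limma adjusted p = 3.38e-04). Its other probe sets moved the same way. Probe set 205686_s_at read 9.51 and 9.81 with shEZH2 and 7.54 and 7.21 with shNTC (2.28, limma adjusted p = 5.96e-04 over all kept probe sets). Probe set 205685_at read 9.57 and 9.80 with shEZH2 and 8.10 and 6.92 with shNTC (2.18, limma adjusted p = 0.00712), and its control arrays differed from each other by more than a unit. The rise of CD86 kept its call in every alternative listed in the closing section, between 1.48 and 2.18.

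CD80, the other ligand of CD28 and CTLA4, did not follow CD86. It read 6.10 and 6.71 on the KARPAS-422 shEZH2 arrays and 6.0 and 7.03 on the shNTC arrays, so that the knockdown values lay between the controls. The difference was -0.11 (SE 0.41, n = 2 per arm, limma adjusted p = 0.867), and leaving out 1 array turned its sign. A second probe set, 1554519_at, read 5.62 and 5.44 with shEZH2 and 6.05 and 5.78 with shNTC, lower on both knockdown arrays but not called (-0.38, limma adjusted p = 0.501). The third, 1555689_at, did not pass the filter and was not tested. It read 4.22 and 3.78 with shEZH2 and 1.85 and 0.83 with shNTC. That gap of 2.66 between dim values shrank to 0.78 with 16 added to each linear signal and to 0.27 with 64 added.

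CD83, a marker of light zone and activated B cells, was read by a single probe set. Its log2 signals were 8.19 and 8.46 on the KARPAS-422 shEZH2 arrays and 7.57 and 7.55 on the shNTC arrays, with no overlap. The difference was 0.76 (SE 0.13, n = 2 per arm, limma adjusted p = 0.00760). Without shEZH2 replicate 2 it was 0.63 and no longer called (adjusted p = 0.0557), and with no intensity trend in the limma fit its adjusted p was 0.0636.

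CD70, the ligand of CD27, also had 1 probe set. It read 8.46 and 8.63 on the KARPAS-422 shEZH2 arrays and 7.59 and 6.67 on the shNTC arrays. Both knockdown arrays lay above both controls, which differed between themselves by nearly a unit, and the difference was 1.41 (SE 0.29, n = 2 per arm, limma adjusted p = 0.0140). Leaving out shEZH2 replicate 1 ended the call (1.50, adjusted p = 0.0900), as did leaving out shEZH2 replicate 2 (1.33, adjusted p = 0.115) and fitting no intensity trend (adjusted p = 0.0914). CD27, its receptor, which B cells also carry, read 12.07 and 11.96 with shEZH2 and 12.08 and 12.08 with shNTC (-0.07, SE 0.08, limma adjusted p = 0.580). The sign of that small difference turned under quantile and cyclic loess scaling.

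CD58, the ligand of CD2, was read by 5 probe sets, of which 3 passed the filter. The brightest, 205173_x_at, whose name marks probes that can also bind other transcripts, gave 7.55 and 7.67 with shEZH2 and 7.65 and 8.08 with shNTC in KARPAS-422. The arms overlapped, and the difference of -0.25 did not pass (SE 0.19, n = 2 per arm, limma adjusted p = 0.371). It ranged from -0.47 to -0.04 with 1 array left out. Probe set 216942_s_at gave 7.28 and 7.31 with shEZH2 and 7.68 and 7.82 with shNTC. It was lower on both knockdown arrays and missed the threshold as deposited (-0.45, limma adjusted p = 0.0917), while 1 of the 15 kept probe sets of the members was called lower under each of quantile, median and cyclic loess scaling. Probe set 211744_s_at gave 6.98 and 7.73 with shEZH2 and 7.37 and 7.44 with shNTC, with no separation. The dim 222061_at read 2.37 and 4.97 with shEZH2 and 5.26 and 5.43 with shNTC and was not tested.

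ICOSLG, the ligand of ICOS, lay close to the filter value. Its 1 kept probe set of 5 read 5.95 and 6.51 on the KARPAS-422 shEZH2 arrays and 6.49 and 6.73 on the shNTC arrays. The arms overlapped, and the difference was -0.38 (SE 0.38, n = 2 per arm, limma adjusted p = 0.492). It ranged from -0.66 to -0.11 with 1 array left out. The dim probe sets were not tested, and their arms overlapped. Their mean differences were 0.66 (213450_s_at), 0.54 (211198_s_at), 0.09 (228976_at) and -0.44 (211199_s_at).

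The checkpoint ligands CD274 and PDCD1LG2 were dim on every array. CD274 read 6.33 and 5.83 with shEZH2 and 6.11 and 6.07 with shNTC in KARPAS-422 on 223834_at, the brighter of its 2 probe sets, and 6.05 with shEZH2 and 5.71 with shNTC in Pfeiffer. On 227458_at it read 6.02 and 4.82 with shEZH2 and 5.73 and 5.12 with shNTC in KARPAS-422. The arms overlapped on both probe sets, and their mean differences were -0.011 and -0.0048. PDCD1LG2 read 3.13 and 1.37 with shEZH2 and 2.56 and 2.49 with shNTC in KARPAS-422 on 220049_s_at, and 1.95 and 2.35 with shEZH2 and 2.24 and 2.59 with shNTC on 224399_at. Neither gene was tested, and dim MAS5 signals of this size cannot show whether a low level changed.

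**Figure D2:**
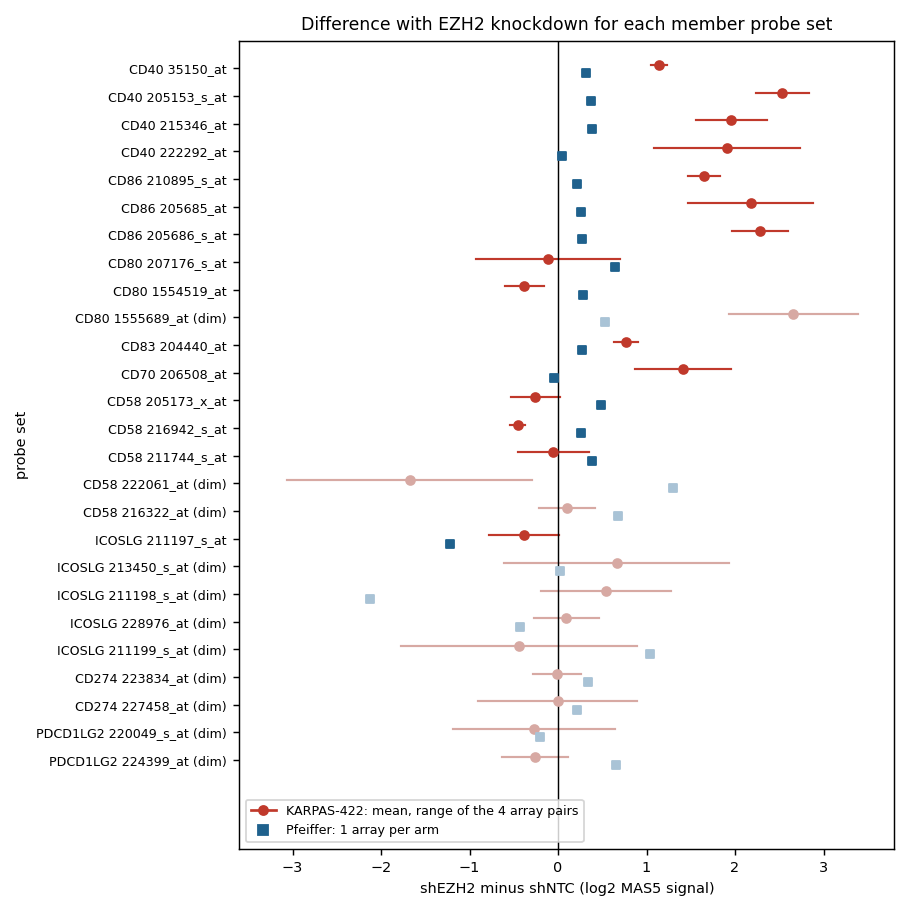
Difference of shEZH2 minus shNTC in log2 MAS5 signal (horizontal axis) for each of the 26 probe sets of the 9 genes. Red circles are KARPAS-422 means with lines over the range of the 4 pairs of arrays, blue squares are the Pfeiffer difference from 1 array per arm, and pale symbols are dim probe sets that did not pass the filter. All 4 probe sets of CD40 and all 3 of CD86 lie right of 0 in KARPAS-422, and their Pfeiffer squares lie between 0 and 0.5.

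Separation of the arms was common on these arrays and is read against that background. Both KARPAS-422 shEZH2 arrays lay above both shNTC arrays for 9 of the 15 kept member probe sets, against 34.3% of all kept probe sets. They lay below for 2, namely 216942_s_at of CD58 and 1554519_at of CD80, against 29.9%, and the arms overlapped for 4. The 9 that lay above again include 4 probe sets of CD40 and 3 of CD86. Of the 11 dim probe sets, 1 lay above, 1 lay below and 9 overlapped, where 16.9% and 23.4% of all probe sets that did not pass the filter lay above and below.

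In Pfeiffer, with 1 array per arm and no test, the genes that rose in KARPAS-422 read within 0.32 of their control by the brightest probe set. CD40 was 12.16 with shEZH2 and 11.84 with shNTC, a difference of 0.32. Its other probe sets gave 0.37 (205153_s_at), 0.39 (215346_at) and 0.04 (222292_at). CD86 was 12.36 with shEZH2 and 12.15 with shNTC (0.21), and CD83 was 14.10 with shEZH2 and 13.82 with shNTC (0.27). CD70 was 9.20 with shEZH2 and 9.25 with shNTC (-0.05). CD80 read 8.13 with shEZH2 and 7.48 with shNTC (0.65), and CD58 read 10.34 with shEZH2 and 9.86 with shNTC (0.48). ICOSLG stood out at 5.32 with shEZH2 and 6.54 with shNTC, a difference of -1.22 near the filter value that shrank to -0.96 with 16 added to the linear signals and to -0.60 with 64 added. Its dim probe sets disagreed in Pfeiffer, at 0.02 (213450_s_at), 1.03 (211199_s_at), -0.43 (228976_at) and -2.13 (211198_s_at). By the kept probe set ICOSLG was the single member past 1 unit downwards, where 1.48% of all genes were. No member was past 1 unit upwards, where 3.23% of all genes were. Replicate arrays of KARPAS-422 differed by at least 1 unit for 4.36% (shEZH2) and 5.99% (shNTC) of genes. Of the 7 genes, 5 read above 0 in Pfeiffer, in a comparison in which 54.6% of all genes did. By probe set, 13 of the 15 kept did. That count repeats genes, and the share over all kept probe sets was not computed.

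The difference of the knockdown effect between the lines was tested in the same limma model, which takes the single Pfeiffer arrays to vary as KARPAS-422 arrays do. By that test CD86 rose more in KARPAS-422 than in Pfeiffer, by 1.44 (SE 0.21, limma adjusted p = 0.0219), and was the 1 member called, where 1.25% of all genes were called in that direction. For CD40 the difference between effects was 0.82 (SE 0.19, limma adjusted p = 0.0952), for CD70 1.46 (SE 0.51, limma adjusted p = 0.211) and for CD83 0.49 (limma adjusted p = 0.321). None of these 3 passed as read by the brightest probe set. CD40 passed on the mean of its kept probe sets (1.6, adjusted p = 0.0413), and CD70 passed without KARPAS-422 shNTC replicate 1 (1.92, adjusted p = 0.0138). On single probe sets the difference passed for 205153_s_at of CD40 (2.16, limma adjusted p = 0.0311 over all kept probe sets) and for 205686_s_at of CD86 (2.01, limma adjusted p = 0.0333) besides 210895_s_at. Leaving out KARPAS-422 shEZH2 replicate 1 ended the CD86 call (adjusted p = 0.177), and so did leaving out replicate 2 (adjusted p = 0.157). On 205685_at, read when probe sets named _x_at or _s_at were left out, CD86 was not called (1.92, limma adjusted p = 0.178).

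Over both lines, with a term for the line and 3 arrays per arm, CD86 rose by 1.17 (SE 0.27, limma adjusted p = 0.0465) and CD40 by 0.87 (SE 0.17, limma adjusted p = 0.0370). They were 2 of the 7 genes, where 3.76% of all genes were called higher. CD83 gave 0.60 (limma adjusted p = 0.0509) and CD70 0.93 (limma adjusted p = 0.127), and neither passed. CD83 lay at the threshold, with calls under 4 alternatives: a stricter filter (adjusted p = 0.0378), 16 or 64 added to each linear signal (0.0468 and 0.0455) and the mean of the kept probe sets (0.0488). This comparison holds the KARPAS-422 arrays again and is no independent evidence. It also fits 1 effect for both lines, while the CD86 difference was 1.65 in KARPAS-422 and 0.21 in Pfeiffer. Leaving out any 1 of the 4 KARPAS-422 arrays ended both calls, with adjusted p between 0.124 and 0.192 for CD40 and between 0.148 and 0.202 for CD86.

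In their control arms the 2 lines differed widely in these genes. The difference of KARPAS-422 shNTC minus Pfeiffer shNTC was largest for CD83, at 7.57 and 7.55 against 13.82, or -6.26 (SE 0.16, limma adjusted p = 3.89e-07). It was -2.99 for CD40 (SE 0.14, limma adjusted p = 4.33e-06) and -2.76 for CD86 (SE 0.15, limma adjusted p = 9.67e-06). CD70 differed by -2.12 (SE 0.36, limma adjusted p = 0.00258) and CD58 by -1.99 (limma adjusted p = 4.56e-04). These 5 of the 7 genes were called lower in KARPAS-422, where 22.5% of all genes were. By probe set, 12 of the 15 kept were called lower. That count repeats CD40 (4 probe sets), CD86 (3) and CD58 (3), and the share over all kept probe sets was not computed. CD80 (-0.97, limma adjusted p = 0.158) and ICOSLG (0.07, limma adjusted p = 0.920) were not called. The CD80 difference was -1.48 without KARPAS-422 shNTC replicate 2. With the replicate number as a block it was -1.38 (limma adjusted p = 0.0268). The block fit set KARPAS-422 at its replicate 1 level, so it is no check of the difference between arm means. The test of the control arms uses 2 arrays against 1 and shares the KARPAS-422 controls with the knockdown comparison.

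Ordered by level within each gene, the Pfeiffer arrays were highest for CD40, CD86, CD83, CD70, CD58 and CD80. With EZH2 knocked down, KARPAS-422 averaged 11.04 for CD86 against 12.15 in Pfeiffer shNTC, 9.99 for CD40 against 11.84, 8.54 for CD70 against 9.25 and 8.33 for CD83 against 13.82. Each of these 4 genes in KARPAS-422 shEZH2 cells thus stood above its own control and below the Pfeiffer control array. The Pfeiffer arms, next to each other in this order, have no replicate spread of their own. The Pfeiffer difference was larger than the gap between the 2 KARPAS-422 shNTC arrays for CD40 and CD83, and smaller than it for CD86 and CD70. Beside the gap between the 2 KARPAS-422 shEZH2 arrays it was larger for CD40 and CD86 and smaller for CD70. For CD83, at 8.19 and 8.46 on those shEZH2 arrays, it was about as large as the gap.

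Of 30 other costimulatory and checkpoint molecules of antigen-presenting cells, 22 were measured, and 10 rose in KARPAS-422 by limma, where 13.1% of all genes did. None of the 22 was called lower, where 12.3% of all genes were and 2 of the list were lower at an unadjusted p under 0.05. Of the 10 called, CEACAM1, TNFSF8 and VSIR passed the filter through the KARPAS-422 shEZH2 arrays alone, with all 4 other arrays below its value, so these 3 had to differ and their calls support nothing. That leaves 7 of 19, with a median of 0.19, LGALS9 included. LGALS9 exceeded the filter value on only 1 other array, KARPAS-422 shNTC replicate 2. It too needed the KARPAS-422 shEZH2 arrays to pass, so its call supports nothing either. CEACAM1, an adhesion molecule that inhibits T cells, was at 7.34 and 6.54 with shEZH2 and 3.29 and 1.23 with shNTC (4.68, limma adjusted p = 0.00995). Its controls were dim, so the size of that difference is uncertain, and on its other probe set, read when no filter was used, the difference was 0.38 (adjusted p = 0.609). LGALS9, which encodes galectin-9 and has near-identical copies that its probes may also read, was 9.32 and 8.83 with shEZH2 and 4.38 and 6.78 with shNTC (3.49, limma adjusted p = 0.0122). Its difference was 2.29 without shNTC replicate 1 and 4.69 without shNTC replicate 2. TNFSF13B, the B cell survival factor BAFF, was 8.22 and 7.83 with shEZH2 and 5.63 and 5.72 with shNTC (2.35, limma adjusted p = 0.00227). TNFSF8, the ligand of CD30, was 7.40 and 7.50 with shEZH2 and 6.13 and 5.56 with shNTC (1.61, limma adjusted p = 0.0181). CD84, TNFSF15, VSIR, TNFRSF14, TNFSF9 and CD48 were called as well. CD84, a receptor of the SLAM family, read 10.66 and 10.87 with shEZH2 and 9.22 and 9.23 with shNTC in KARPAS-422, and 11.02 with shEZH2 and 9.98 with shNTC in Pfeiffer. It and TNFSF15 were the 2 of the list called over both lines (limma adjusted p = 0.0120 and 0.0165), where 3.76% of all genes were called higher, a comparison that made 0 to 17 calls in all with 1 KARPAS-422 array left out. The count of 10 fell to 3 without either shEZH2 replicate, when CEACAM1, LGALS9 and TNFSF8 were no longer called, and to 6 without a filter or without the intensity trend and 4 with a stricter filter. After rescaling, 1 (quantile), 3 (median) or 1 (cyclic loess) of the list were called lower.

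**Figure D3:**
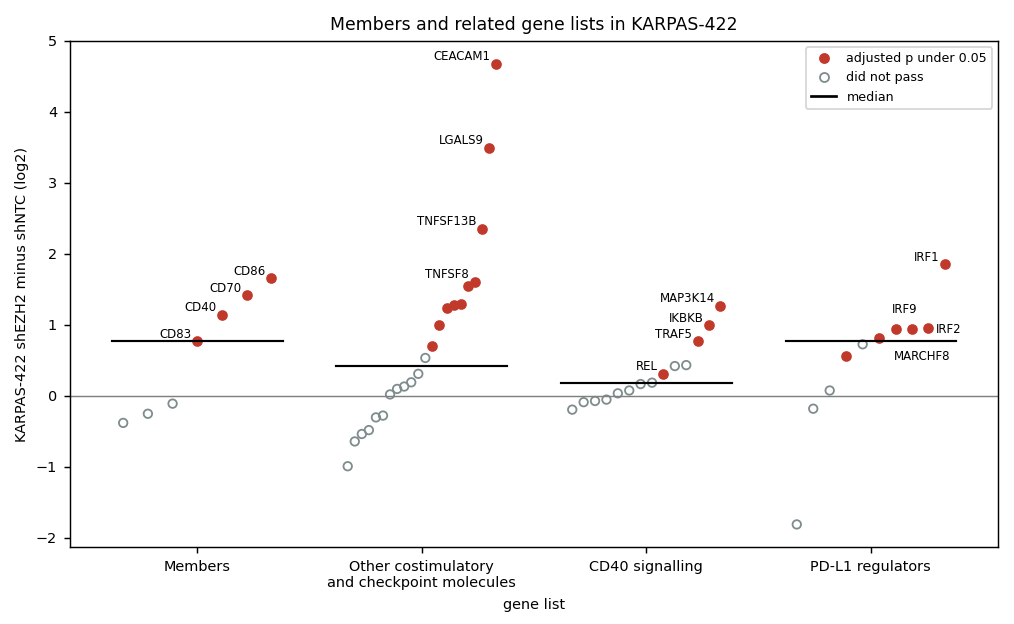
Difference of KARPAS-422 shEZH2 minus shNTC in log2 MAS5 signal (vertical axis) for the 7 measured members and 3 related gene lists (horizontal axis). Each circle is a gene, filled red where its limma adjusted p was under 0.05, and horizontal lines are list medians. CEACAM1, TNFSF8, VSIR and LGALS9 needed the KARPAS-422 shEZH2 arrays to pass the filter, and their list median includes them. With the signals as deposited the filled circles all lie above 0, and the 4 called members lie between 0.76 and 1.65.

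Of 16 genes of CD40 signalling, 14 were measured and 4 rose in KARPAS-422, with a list median of 0.17. They were MAP3K14 (NIK, the kinase of the alternative NF-kappaB pathway) at 1.26 (limma adjusted p = 0.00524), IKBKB (an IkappaB kinase) at 0.99 (limma adjusted p = 0.00491), the adaptor TRAF5 at 0.76 (limma adjusted p = 0.0231) and the NF-kappaB subunit REL at 0.31 (limma adjusted p = 0.0338). MAP3K14 read 8.93 and 8.86 with shEZH2 and 7.43 and 7.82 with shNTC. The share, 4 of 14, stands beside 13.1% of all genes called higher. Without either shEZH2 replicate none of these 4 was called, by limma at adjusted p between 0.054 and 0.134, while their differences moved little (MAP3K14 to 1.23 or 1.30, IKBKB to 0.99 or 0.98, TRAF5 to 0.78 or 0.75, REL to 0.29 or 0.32), and without shNTC replicate 1 or without the intensity trend the count was 2. On the mean of its probe sets IKBKB gave 0.39 (adjusted p = 0.107), and REL gave 0.13 after median centring (adjusted p = 0.260). TRAF5 gave 0.55 after quantile scaling (adjusted p = 0.0647) and 0.61 after cyclic loess scaling (adjusted p = 0.0512). TRAF3, an inhibitor of the alternative pathway, gave 0.43 (limma adjusted p = 0.0502), and NFKB1 gave 0.42 (limma adjusted p = 0.0502).

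Of 11 genes known to regulate PD-L1 expression or trafficking, 10 were measured and 6 rose in KARPAS-422, where 13.1% of all genes did, with a list median of 0.77, while CD274 itself stayed dim. IRF1, the transcription factor through which interferon gamma is known to induce CD274, read 9.20 and 9.27 with shEZH2 and 7.08 and 7.70 with shNTC (1.85, limma adjusted p = 0.00236). IRF2 gave 0.96 (limma adjusted p = 0.00670) and IRF9, another interferon regulatory factor, 0.94 (limma adjusted p = 0.00500). MARCHF8, a ubiquitin ligase known to remove CD86 from the cell surface, gave 0.94 (limma adjusted p = 0.00164), but 0.26 when probe sets named as shared (_x_at, _s_at) were left out (adjusted p = 0.451). STAT3 and JAK1 were called too, and JAK2 gave 0.72 (limma adjusted p = 0.0581). IRF2 lost its call without shEZH2 replicate 2 (0.88, adjusted p = 0.0674), when 4 of the list were called, and 3 were called without the intensity trend. In Pfeiffer IRF1 read 9.31 with shEZH2 and 8.70 with shNTC.

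Of 7 counter-receptors of T and NK cells, CD27, described above, was the 1 measured. The B cell label held on its defining markers, though each line also read high for markers of other cell types. All 7 B cell markers with a single-gene probe set, MS4A1 and PAX5 among them, passed the filter and lay above its value on every array, and so did the 4 germinal centre B cell markers. In Pfeiffer CD79A, part of the B cell receptor, was far dimmer than in KARPAS-422, at 9.13 with shEZH2 and 8.17 with shNTC, while EPCAM, an epithelial marker, read 12.98 with shEZH2 and 13.33 with shNTC and CD8A, a T cell marker, 13.60 with shEZH2 and 13.49 with shNTC. The summed linear signal of the B cell markers was 50391 and 50459 on the KARPAS-422 shEZH2 arrays and between 43080 and 50472 on the shNTC arrays. Myeloid and dendritic cell markers moved with the knockdown in KARPAS-422, at a sum between 12502 and 14524 with shEZH2 and between 4635 and 5460 with shNTC, while 3 of the 9 on the array passed the filter. Nearly all of it came from LAMP3, at 13.44 and 13.26 with shEZH2 and 11.83 and 11.58 with shNTC, and from CD1C, at 11.65 and 11.28 with shEZH2 and 10.61 and 10.45 with shNTC. CD1C is also found on some B cells. Pfeiffer read LAMP3 at 5.83 with shEZH2 and 4.25 with shNTC, both below the filter value. There CD1C was 7.59 with shEZH2 and 6.38 with shNTC. Over both lines LAMP3 and CD1C were called higher (limma adjusted p = 0.00764 and 0.0239), where 3.76% of all genes were. The other myeloid markers were dim. On the KARPAS-422 arrays CD14 and S100A9 read at most 2.99, and CSF1R and ITGAX reached 6.27 and 6.15 with overlapping arms. S100A8 read 3.85 and 5.34 with shEZH2 and 6.28 and 5.77 with shNTC. LYZ read 3.36 and 4.78 with shEZH2 and 2.17 and 2.85 with shNTC, higher on both knockdown arrays at dim values. T and NK cell markers summed to between 4615 and 5091 with shEZH2 and between 7031 and 7552 with shNTC, with 7 of 12 past the filter. CD3G and CD3D, parts of the T cell receptor complex, carried most of that sum and were called lower: CD3D read 10.53 and 10.61 with shEZH2 and 11.43 and 11.24 with shNTC (-0.77, limma adjusted p = 0.00943). The fibroblast, endothelial and epithelial markers summed to between 12421 and 14281 with shEZH2 and between 13098 and 14099 with shNTC, with 7 of 10 past the filter. Most of that sum was DCN, a fibroblast marker, at 13.59 and 13.43 with shEZH2 and 13.71 and 13.60 with shNTC. It covers a rise of PECAM1, an endothelial marker also found on leukocytes, at 10.26 and 9.68 with shEZH2 and 7.10 and 6.91 with shNTC (2.97, limma adjusted p = 6.73e-04), which was called over both lines and for the difference between lines as well. What these shifts contribute to the members' values was not tested.

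The genes whose pattern over the 6 arrays lay closest to each called member, by Euclidean distance of log2 values centred per gene, were taken as a description. For CD86 they were BLVRB at a distance of 0.223, SPMIP9 at 0.237 and PROCR at 0.238, which differed by 1.80, 1.70 and 1.53 in KARPAS-422. For CD40 they were ADAM19 at 0.238, GRAMD1C at 0.290 and TIGD7 at 0.311. CD70 lay closest to IQCH-AS1 at 0.371, AHDC1 at 0.440 and PTK2B at 0.457, and CD83 to RBMS1 at 0.565, CHRNB3 at 0.643 and CADPS2 at 0.698. With so few arrays these distances rest mostly on the gap between the lines, which for the CD83 group was above 6 units.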

How the data were processed

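RNA of KARPAS-422 and Pfeiffer cells was measured on 6 arrays, 1 per sample. The deposited values are log2 signals, made by the authors with MAS5 per the submitters' processing notes, which give no version. MAS5 summarises and scales each array alone. The log base and scaling target are not given in the sources used here. Taken as log2, every array had a 2% trimmed mean of 500 on the linear scale. No detection call or scan date was used here. On a log scale MAS5 spreads weak signals, so a large difference of a dim probe set has an uncertain size. Precision is limited by the 6 arrays.

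By the annotation, 41091 probe sets had 1 gene symbol, 1801 had several, 11721 had none and 62 were controls. Of those with 1 symbol, 41037 were found by gene ID among the RefSeq genes of GRCh38.p14, with 0 symbols changed. The filter kept 25186 probe sets and 13036 genes, of which 6559 had more than 1 kept probe set. Differences were tested with limma 3.58.1 under R 4.3.3 (lmFit and eBayes with a trend on intensity). They were two-sided, with p-values adjusted by Benjamini-Hochberg and a threshold of 0.05. The 4-group model left 2 residual degrees of freedom beside 5.24 prior ones. The model over both lines left 3. Pfeiffer alone was not tested.

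The members and EZH2 are always named. For each list, up to 4 called genes per direction with the largest difference are named, or the 2 with the smallest p, and for each called member the 3 genes nearest in pattern. Genes named beyond this rule (CD84, TNFSF15, VSIR, TNFRSF14, TNFSF9, CD48, STAT3, JAK1, JAK2, TRAF3, NFKB1 and the markers) were chosen after their values were seen. The members and lists were chosen with earlier results of these data known. The scripts were tested on simulated data. Replicate numbers were not taken to pair arrays, since the deviations of same-numbered KARPAS-422 arrays correlated at 0.0065. That value cannot show whether those arrays were handled together. Alternatives covered scaling, filter, added constants, choice of probe set, the trend, a replicate block and leaving out each array.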

Additional observations from a re-analysis of the deposited data

Results flagged for a closer look

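The rise of CD86 with EZH2 knockdown differed between the lines by a test of that difference. It was larger in KARPAS-422 than in Pfeiffer by 1.44 on the log2 scale (SE 0.21, limma adjusted p = 0.0219, with 2 arrays per arm in KARPAS-422 and 1 per arm in Pfeiffer). The shEZH2 minus shNTC difference was 1.65 in KARPAS-422 and 0.21 in Pfeiffer. Both KARPAS-422 shEZH2 arrays, at 11.08 and 10.99, lay above both shNTC arrays, at 9.52 and 9.25. In Pfeiffer CD86 read 12.36 with shEZH2 and 12.15 with shNTC, above all 4 KARPAS-422 arrays. The difference kept its direction in every alternative run. Its call ended when KARPAS-422 shEZH2 replicate 1 was left out (1.40, adjusted p = 0.177), when replicate 2 was left out (1.49, adjusted p = 0.157), without the intensity trend (adjusted p = 0.190), on the mean of the probe sets (1.79, adjusted p = 0.0708) or on the probe set specific to the gene by its name (1.92, adjusted p = 0.178). Whether the Pfeiffer arrays vary as the KARPAS-422 arrays do was not tested, since that line has 1 array per arm.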

How the results depend on the processing

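The KARPAS-422 calls of CD40 and CD86 held in every alternative run. The count of 4 members called higher there fell to 2 without the intensity trend and ranged from 2 to 4 with 1 array left out, while 3305 genes called in all became 720 without the trend and 963 to 2762 with 1 array left out. Of 15 kept member probe sets, 9 called higher became 5 without the trend, and 1 was called lower under quantile, median and cyclic loess scaling, where 0 were as deposited (limma, 1 at an unadjusted p under 0.05). Median centring shifted the median of all genes to -0.19 and the share of called genes that were higher to 27.9%, against 51.5% as deposited. Over both lines that share was 30% against 60.4%, and for the difference between lines 60.8% against 73.4%.

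Over both lines, 811 genes called became 1598 with median centring, 302 without a filter, 1221 with a stricter one, 501 without _x_at and _s_at probe sets and 0 without the trend (3192 at an unadjusted p under 0.05), and 0 to 17 with 1 array left out (2284 to 2634 unadjusted). The 2 members called became 3 with a stricter filter, with 16 added and with 64 added, 0 without a filter (4 unadjusted), 1 without _x_at and _s_at probe sets, 0 without the trend (3 unadjusted) and 0 in each set with 1 array left out. With the replicate block 11 genes and 0 members were called over both lines (4 members at an unadjusted p under 0.05), and 378 genes for the difference between lines. The block changed no call of a member in KARPAS-422. Between the control arms the block fit set KARPAS-422 at its replicate 1 level, so it is no check of the arm means. There it gave -1.38 for CD80 (limma adjusted p = 0.0268), and 6 members in place of 5 were called lower. The deviations of same-numbered KARPAS-422 arrays correlated at r = 0.0065, which cannot show whether those arrays were handled together.

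For the difference between lines, 222 genes called became 114 without a filter, 1 without the trend and 0 to 473 with 1 array left out (limma, 1771 to 2417 at an unadjusted p under 0.05). The 1 member called became 0 without _x_at and _s_at probe sets, 0 without the trend, and 0 to 2 with 1 array left out. In Pfeiffer, 614 genes past 1 unit became 3041 without a filter, 154 with a stricter one, 393 with 16 added and 135 with 64 added, and the 1 member past it, ICOSLG, became 0 in the last 3 and without _x_at and _s_at probe sets.

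Small differences that turned sign were CD80 in KARPAS-422 (-0.63 to 0.40 with 1 array left out, with 0.19 without shEZH2 replicate 1 and 0.40 without shNTC replicate 2) and over both lines (-0.010 on the mean of probe sets, -0.16 without _x_at and _s_at probe sets, and -0.080 to 0.51 with 1 array left out, the lowest without shNTC replicate 1). CD58 over both lines turned to 0.019 with 64 added, and ranged from -0.063 to 0.18 with 1 array left out, negative without shNTC replicate 1 and positive without any 1 of the others. ICOSLG between control arms turned to -0.051 without shNTC replicate 2 and reached 0.19 with another array left out. With the replicate block, which set KARPAS-422 at its replicate 1 level, ICOSLG between control arms gave -0.13. CD27 in KARPAS-422 turned to 0.019 (quantile) and 0.088 (cyclic loess). The causes were not tested. The counts over related lists were recomputed as an alternative added after seeing the data. With 2 arrays per arm, and dim MAS5 signals for CD274, PDCD1LG2 and most of ICOSLG, small changes could not be measured.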
